A study of Mus musculus with 12 samples.

Results

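The comparison is between mouse cardiac myofibroblast cultures that received soluble CD74 together with macrophage migration inhibitory factor (MIF) and such cultures that received carrier. It takes 6 of the 12 microarrays of the series, 3 co-treated and 3 carrier arrays, chosen by the treatment named in their titles and paired by the code that the titles share. The remaining 6 arrays carry cells given either protein alone. Co-treated cells had 40 nM sCD74 and 8 nM MIF for 8 h, and carrier cells had neither protein for the same 8 h. All cultures were of fibroblasts from the hearts of newborn wild-type C57BL/6J mice, kept until they became myofibroblasts. That is the contractile and matrix-secreting state of the fibroblast. The arrays also held macrophage RNA, given below, so the cultures were not fibroblasts alone. Whether replicates stand for separate heart cell isolations is not given in the labels, and the p-values below thus measure only the spread between these arrays.

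MIF is a cytokine that most cells store and release under stress. It binds CD74 on the cell surface, and CD74 passes the signal on through its partner CD44 or through the chemokine receptors CXCR2 and CXCR4. The outer part of CD74 can be shed, and this soluble form (sCD74) can bind MIF outside the cell. The genes below belong largely to a pair of textbook inflammatory systems. NF-kappaB factors wait in the cytoplasm, bound by inhibitors such as IkB-alpha, and on release switch on chemokines, survival genes and their own inhibitors. Interferon-stimulated genes are switched on by STAT and IRF factors and hold antiviral proteins and the guanylate-binding GTPases.

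The deposited values are log2 levels, 1 per probe set and array, and every difference below is co-treated minus carrier on that scale. Over the 6 arrays the median value lay between 8.01 and 8.12, and arrays of the same group correlated with r of 0.988 to 0.994. A level of 7.53, the mean of the array medians of negative control probe sets, marks background. Where a gene's mean lay below it in a compared group, its values are given without a size for the difference. On each array 231 to 251 values lay above 16, beyond what a 16-bit scanner records, so how a log2 difference converts into a fold of RNA is not settled. Precision is limited by having 3 arrays a group, with a median standard error (SE) of 0.14 for a difference in the paired model. Fibroblast markers were high on every array: the mean level of the 11 measured markers was 15.50, 15.53 and 15.53 on co-treated arrays 1, 2 and 3 and 15.54, 15.48 and 15.62 on carrier arrays 1, 2 and 3. The same arrays also held macrophage RNA, with Lyz2 (lysozyme) between 16.93 and 17.47 on co-treated and between 17.06 and 17.55 on carrier arrays. In bulk RNA, fewer cells of a type and less RNA per cell cannot be told apart.

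The genes with the largest differences included the monocyte-attracting chemokines Ccl2 and Ccl7, the interferon-stimulated genes Ifit3 and Oasl2, the GTPase Gbp2 and the myeloid receptor gene Clec4e, all with higher means in co-treated cells. Of 19505 genes, 20 were higher by at least 1 on the log2 scale (0.103% of genes), and 3 were lower by as much (0.0154%). Of the 20, 9 stood in the interferon lists and 5 in the chemokine lists, which were chosen with earlier results of these data known. All 3 pairs were higher in 19, against 14.2% of all genes, but the 20 were picked on the mean of those same pairs. In 7 of the 20 the carrier mean lay below the background level, as in Acod1, Cxcl10, Ifit1 and Rsad2. No single gene passed limma's paired test after Benjamini-Hochberg adjustment. The count was 0 of 22206 probe sets (0%), and the smallest adjusted p was 0.231. At an unadjusted p under 0.05 the same test counted 1772 probe sets (7.98%), 916 higher (4.13%) and 856 lower (3.85%), where 5% would be 1110.3. When the paired model let the variance follow the signal level and down-weighted outlying variances (trend and robust variance), 7 probe sets (0.0315%) passed the adjusted threshold, all higher with co-treatment. They were those of Clec4e, Acod1, Birc3, Gbp2, Slco3a1 and Slc7a3, and 1 with no gene name. The unnamed one had the smallest p of the table (adjusted p = 0.231 in the paired test). Its levels were 9.89, 11.48 and 11.24 on co-treated arrays 1, 2 and 3, against a range of 8.66 to 9.16 on the carrier arrays, without overlap.

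**Figure D1:**
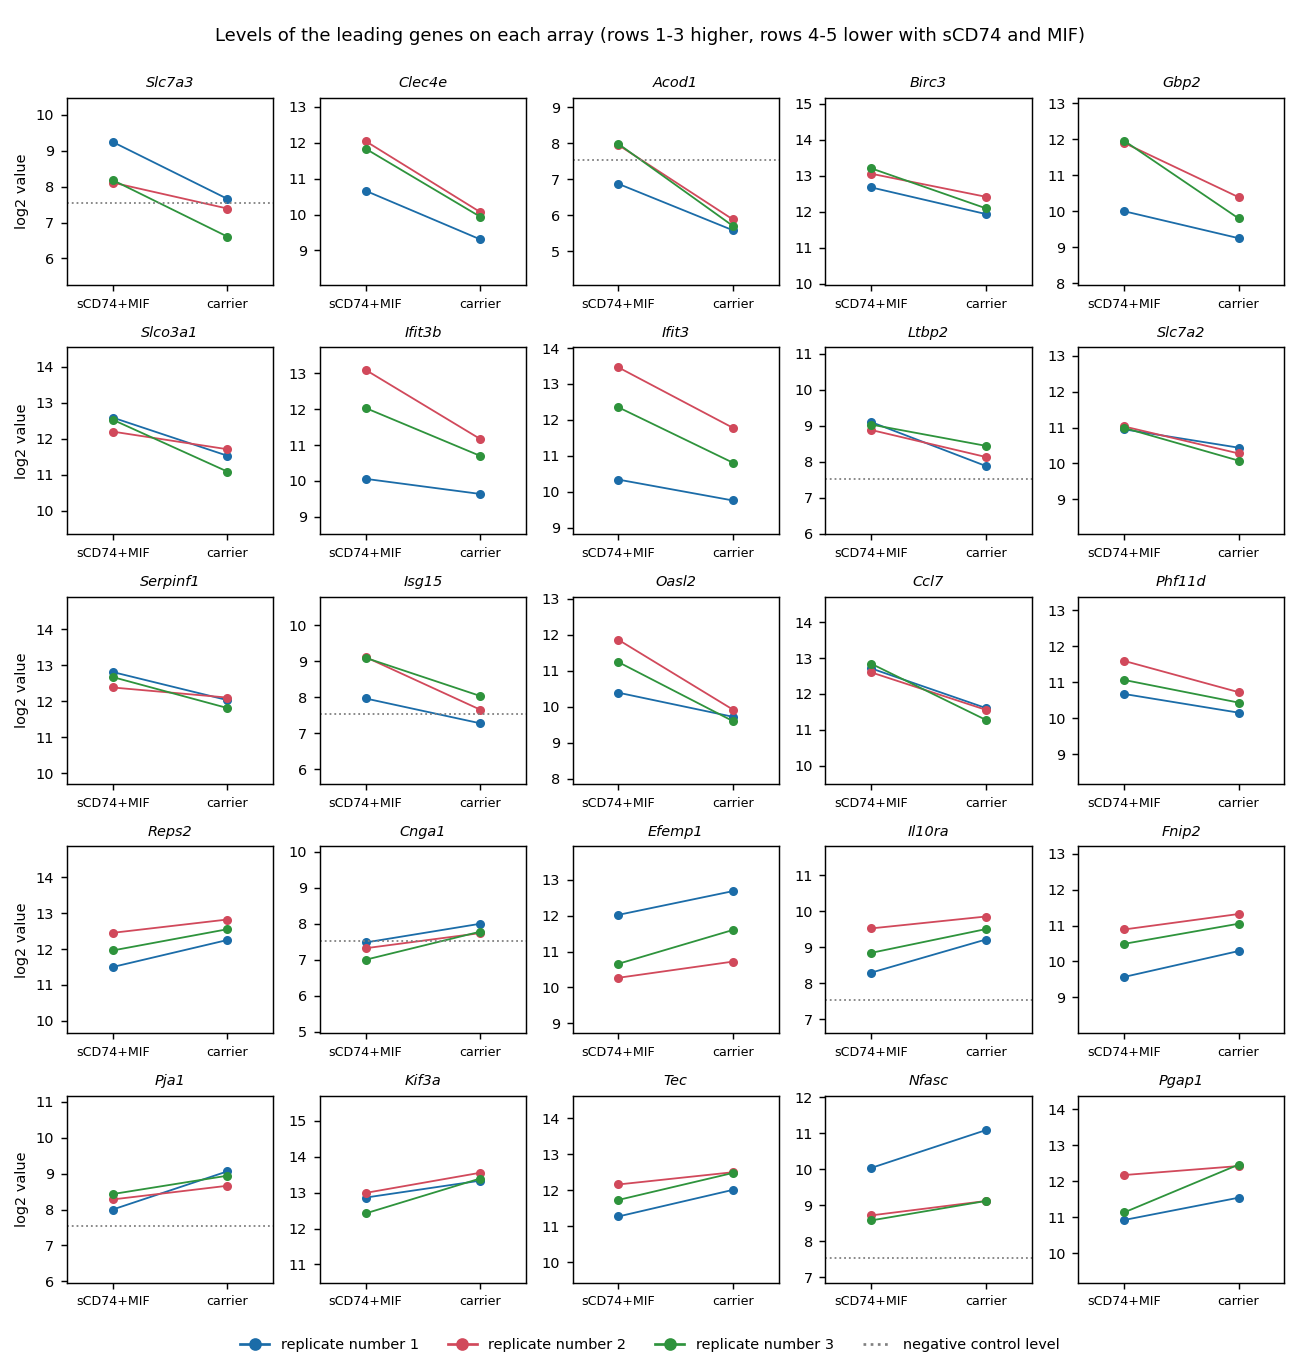
Log2 level (vertical axis) of the 25 leading genes on each of the 3 co-treated (left) and 3 carrier arrays (right); lines join arrays of the same replicate number and the dotted line is the negative control level of 7.53. The top 3 rows hold the 15 higher genes and the bottom 2 rows the 10 lower ones, each drawn over the same span of log2 units. In Birc3, Clec4e and Ccl7 the groups do not overlap, while in Gbp2, Ifit3 and Efemp1 the replicate numbers lie further apart than the treatments.

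The list of MIF, its relatives and its partner receptors and ligands gave no member past the unadjusted threshold. Cd74 itself was not in this list. Of 8 measured genes in this list, 0 had an unadjusted p under 0.05 in either direction. Over all 19505 genes, 4.32% had such a p on the higher side and 3.79% on the lower side. Those shares are the background for the counts of every list below. The median difference of the list was 0.02. Transcripts of Mif were at 11.23, 10.85 and 10.72 on co-treated arrays 1, 2 and 3 and at 10.27, 10.81 and 10.58 on carrier arrays 1, 2 and 3. Its pair differences of 0.96, 0.04 and 0.14 put most of the mean difference (0.38 ± 0.19, SE) into replicate number 1, and without that number in every group it was 0.09. Cd44, which encodes the signalling partner of CD74, differed by 0.11 ± 0.14. The chemokine receptor Cxcr4 was at 11.05, 9.91 and 9.93 with co-treatment against 11.16, 10.35 and 10.44 with carrier, a difference of -0.35 ± 0.19 (adjusted p = 0.667). Cxcr2 lay near the background level, with a mean of 7.76 in co-treated and 7.85 in carrier cells.

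In the NF-kappaB module itself, 15 of 17 genes had a higher mean with co-treatment, where 50.3% of all genes did. Of these 17 subunits, inhibitors and feedback genes, 7 had an unadjusted p under 0.05 as higher and 0 as lower, and the median difference was 0.28 against 0.0014 over all genes. The list medians in pairs 1, 2 and 3 were 0.31, 0.19 and 0.24. Nfkbia encodes IkB-alpha, which NF-kappaB induces and which then returns it to the cytoplasm. Its levels were 11.88, 12.03 and 12.12 on co-treated arrays and 11.17, 11.53 and 11.44 on carrier arrays, in the order of replicate numbers 1, 2 and 3 that is kept below. All 3 co-treated arrays lay above all 3 carrier arrays, and the difference was 0.63 ± 0.14 (SE, adjusted p = 0.518 in limma's paired test). Tnfaip3, the ubiquitin-editing enzyme A20 that ends NF-kappaB signalling, was at 10.53, 10.79 and 11.06 against 9.69, 10.51 and 9.99 with carrier (0.72 ± 0.22, adjusted p = 0.549), also without overlap. The subunit genes Nfkb2 and Rela lay higher by 0.52 ± 0.18 and 0.34 ± 0.14, and Nfkbie, the gene of IkB-epsilon, stood below background in both groups (7.44 co-treated, 6.55 carrier). Rel differed by 0.05 and Cyld, a deubiquitinase of the same pathway, by -0.02.

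The region before the start of Nfkbia carries 2 matches to a kappaB-like motif, GGNNTTTCC on either strand. It is shown because Nfkbia is a classic feedback gene of the pathway. The bases are those of chr12:55492648-55492897 on the minus strand (RefSeq, GRCm38.p6), the 250 bases before the annotated start, with the matches in capitals beginning at positions -178 and -29 from it:
Nfkbia: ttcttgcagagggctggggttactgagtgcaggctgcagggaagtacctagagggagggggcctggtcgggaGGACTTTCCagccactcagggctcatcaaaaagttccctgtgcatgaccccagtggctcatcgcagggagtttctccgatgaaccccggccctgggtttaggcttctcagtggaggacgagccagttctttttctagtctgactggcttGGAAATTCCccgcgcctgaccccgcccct
Of the 35 genes in both NF-kappaB lists, 32 had such a window in the RefSeq table, here taken with 50 further bases after the start. A kappaB-like match was found in 13 of them (40.6%), against 6.62% of all 27025 genes of the table. The other motifs scanned were also more frequent there than over all genes. AP-1 (TGANTCA) was in 28.1% against 8.97%, and an amino acid response motif (TGATGNAA) in 12.5% against 4.51%. An interferon response element-like motif (GAAANNGAA) was in 15.6% against 9.76%. A match describes letters and is not a binding site. The kappaB-like motif was found in 3 of 11 windows of the 15 leading higher genes (27.3%) and in 3 of 8 windows of the 10 leading lower ones (37.5%). AP-1 was found in 3 of the 11 (27.3%) and in 1 of the 8 (12.5%).

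Among NF-kappaB-driven survival and adhesion genes, 10 of 18 (55.6%) had an unadjusted p under 0.05 as higher and 1 (5.56%) as lower. Over all genes these shares were 4.32% and 3.79%. The median difference of the list was 0.41. The pair medians were 0.23, 0.23 and 0.52. Birc3 encodes cIAP2, a ubiquitin ligase that keeps cells alive under TNF signalling. It was at 12.68, 13.06 and 13.21 with co-treatment and at 11.94, 12.42 and 12.10 with carrier, so the groups did not overlap. Its difference of 0.83 ± 0.14 had an adjusted p of 0.267 in the paired test, and of 0.0216 with trend and robust variance. Vcam1, the adhesion molecule that holds leukocytes, was already abundant and lay at 15.43, 15.54 and 15.70 against 15.17, 15.09 and 15.09 (0.44 ± 0.13, adjusted p = 0.549). Sod2, the mitochondrial superoxide dismutase, stood at 13.97, 14.00 and 14.52 against 13.58, 13.68 and 13.39 (0.61 ± 0.18, adjusted p = 0.549). Both were above carrier on every array. Other adhesion genes overlapped between the groups: Icam1 differed by 0.47 ± 0.15, Sele (E-selectin) by 0.89 ± 0.35 and Selp (P-selectin) by 0.69 ± 0.26. Csf1, the growth factor of macrophages, was at 16.63, 16.48 and 16.58 against 16.25, 16.29 and 16.19 (0.32 ± 0.12, adjusted p = 0.592). The member on the lower side was Pdlim4, a cytoskeletal adaptor (-0.45 ± 0.13, adjusted p = 0.549). The apoptosis regulators Cflar and Bcl2a1a differed by 0.02 each, and Traf1 was below background in both groups.

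Several chemokines that draw monocytes did not overlap between the groups. In the CC and CX3C list, 6 of 15 members had an unadjusted p under 0.05 as higher, 0 as lower, and 7 did not overlap, with all co-treated arrays above all carrier arrays, against 4.52% of all genes. Ccl2, the main monocyte attractant, was at 14.72, 14.78 and 15.26 with co-treatment and at 13.23, 13.92 and 12.48 with carrier. Its pair differences of 1.49, 0.86 and 2.78 average 1.71 ± 0.44 (SE, adjusted p = 0.549). Carrier array 3 was the lowest of the 6, and without it the difference was 1.09. Ccl7, its neighbour in sequence and function, was steadier: 12.71, 12.60 and 12.84 against 11.61, 11.56 and 11.28. The spread within each group was 0.12 and 0.18 (SD, n = 3) beside a difference of 1.23 ± 0.26 (adjusted p = 0.518). Ccl12, the third monocyte chemokine of this cluster, lay at 12.38, 13.67 and 12.56 against 11.63, 12.81 and 11.08 (1.03 ± 0.27, adjusted p = 0.549). It overlapped between the groups but was higher within every pair. The T cell and monocyte attractant Ccl5 was at 8.16, 9.07 and 10.40 against 7.43, 7.98 and 7.84 (1.46 ± 0.34, adjusted p = 0.54). Its pair differences, 0.73, 1.08 and 2.56, were largest in replicate number 3. The membrane-bound chemokine Cx3cl1 differed by 0.43 ± 0.11 (adjusted p = 0.549), and Ccl17 by 0.57 ± 0.17 (adjusted p = 0.549). Ccl3, Ccl9, Ccl4 and Ccl6 were well expressed and had p above 0.05, with differences of 0.40, 0.29, 0.12 and 0.08.

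In the CXC list, 5 of 11 members (45.5%, against 4.32% of all genes) had an unadjusted p under 0.05 as higher. On the lower side there were 0, and the median difference was 0.41. Only 6 of the 11 reached background in at least 1 group and 5 in both, and the median over those 5 was 0.43. Cxcl10, the interferon-induced attractant of T cells, was at 7.79, 9.96 and 8.38 on co-treated arrays and at 6.88, 6.94 and 7.48 on carrier arrays. The groups did not overlap, and co-treated array 2 was the highest. Because the carrier mean of 7.10 lay below background, no size is given (adjusted p = 0.522). Cxcl13, the B cell attractant, differed by 0.70 ± 0.18 (adjusted p = 0.549) and Cxcl16, a membrane-bound scavenger chemokine, by 0.41 ± 0.14 (adjusted p = 0.582). Cxcl12, the constitutive chemokine of fibroblasts and the usual ligand of CXCR4, differed by -0.06 ± 0.11. The window before Cxcl10 is shown with both its kappaB-like match and its match to an interferon motif, at chr5:92348890-92349139 on the minus strand (RefSeq, GRCm38.p6). The capitals mark an interferon response element-like match, GAAANNGAA on either strand, at position -213 from the start and a kappaB-like match at -158:
Cxcl10: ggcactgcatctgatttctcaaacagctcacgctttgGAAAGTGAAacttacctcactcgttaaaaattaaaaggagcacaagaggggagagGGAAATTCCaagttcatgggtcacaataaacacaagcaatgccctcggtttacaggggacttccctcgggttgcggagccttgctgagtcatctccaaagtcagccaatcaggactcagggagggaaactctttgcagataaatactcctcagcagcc
Of 26 chemokine genes, 18 had a window in the table, and 7 of these held a kappaB-like match (38.9%, against 6.62% of all genes). An interferon response element-like match was in 27.8% against 9.76%, and an AP-1 match in 16.7% against 8.97%. The amino acid response motif was in 0 of the 18, against 4.51% of all genes.

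Cytokines were less uniform. Of 17 measured members, 4 (23.5%) had an unadjusted p under 0.05 as higher and 1 (5.88%) as lower, against 4.32% and 3.79% of all genes. Only 10 of the 17 reached background in at least 1 group. Lif, among the members on the higher side, lay below it in both groups (7.47 co-treated, 6.94 carrier). Tnf stood at 7.74, 9.08 and 9.01 with co-treatment and at 6.87, 8.31 and 7.38 with carrier. It was higher in every pair, but its carrier mean of 7.52 lay just under background (adjusted p = 0.549). Il1rn, the natural antagonist of interleukin-1, was at 8.21, 8.32 and 8.80 against 7.95, 7.93 and 7.85 (0.54 ± 0.21, adjusted p = 0.592). Il6 was expressed in both groups, at 12.31, 10.62 and 11.00 against 11.87, 10.22 and 11.00. Its difference was 0.28 ± 0.13 (adjusted p = 0.625), 0.45 and 0.40 in the first pairs and -0.0037 in pair 3. Hgf, a growth factor that fibroblasts release, was the member on the lower side, at 9.67, 8.95 and 9.31 against 10.66, 9.40 and 9.67 (-0.60 ± 0.22, adjusted p = 0.592). Acute-phase genes had 2 of 12 members with an unadjusted p under 0.05 as higher, where 4.32% of all genes did, and a median of -0.08. Those were Ptx3 (pentraxin 3), at 10.00, 9.31 and 9.42 against 9.04, 9.01 and 9.01, and Saa3, a serum amyloid, whose pair differences were 1.17, 0.03 and 1.87. Lcn2 (lipocalin 2) ranged from 12.30 to 14.92 in co-treated and from 11.54 to 14.31 in carrier cells, and its pair differences of 0.61, -0.26 and 0.85 did not share a sign.

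All 26 measured interferon-stimulated antiviral genes had a higher mean with co-treatment, where 50.3% of all genes did. Only 20 of the 26 reached background in at least 1 group and 17 in both, and the median difference over those 17 was 0.5. Of the 26, 14 had an unadjusted p under 0.05 as higher (4.32% of all genes) and 18 were higher in all 3 pairs (14.2% of all genes). The median difference of the 26 was 0.46, and the pair medians were 0.24, 0.80 and 0.47. The median was largest in pair 2 and smallest in pair 1. Oasl2, an antiviral oligoadenylate synthetase-like protein, was at 10.39, 11.86 and 11.24 with co-treatment and at 9.72, 9.92 and 9.60 with carrier. Its carrier arrays lay close together, the groups did not overlap, and the difference was 1.42 ± 0.30 (adjusted p = 0.518). Ifit3, which binds viral RNA complexes, was at 10.34, 13.46 and 12.35 against 9.76, 11.78 and 10.81. The replicate numbers differed from each other by more than the treatment, so the groups overlapped. Within pairs Ifit3 was higher by 0.58, 1.67 and 1.54, on average 1.26 ± 0.25 (adjusted p = 0.513). Without the replicate number in the model its adjusted p was 0.999, which was also the smallest over all probe sets in that model. Ifit3b, a near-identical gene beside it, had the same pattern (1.23 ± 0.24), and their probes may read each other's RNA. Isg15, a ubiquitin-like protein joined to other proteins during infection, stood at 7.97, 9.12 and 9.10 against 7.28, 7.66 and 8.04 (1.07 ± 0.23, adjusted p = 0.518), with carrier array 3 above co-treated array 1. Phf11d, an interferon-induced zinc finger gene, differed by 0.67 ± 0.15 (adjusted p = 0.518). Ifit1, Irf7 and Rsad2 had carrier means of 7.09, 6.56 and 6.98, below background. On co-treated array 2 they reached 9.87, 8.88 and 9.85. Ifit1 was at 6.96 on co-treated array 1 against 7.04 on carrier array 1, so pair 1 went the other way. The RNA sensors Ddx58 (RIG-I, 0.50 ± 0.14, adjusted p = 0.549) and Ifih1 (MDA5, 0.40 ± 0.16, adjusted p = 0.601) were among the members with smaller differences. Oas2, Oas3 and Oasl1 were among the members below background in both groups.

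Interferon-inducible GTPases, which attack the vacuoles of intracellular parasites, had the highest median of the 24 gene lists, 0.75, with pair medians of 0.31, 1.10 and 0.67. Of 10 measured members, 7 (70%) had an unadjusted p under 0.05 as higher and 0 as lower, against 4.32% and 3.79% of all genes. Gbp2 was at 10.00, 11.90 and 11.96 with co-treatment and at 9.25, 10.39 and 9.80 with carrier. Co-treated array 1 lay below carrier array 2, but each pair was higher, by 0.75, 1.51 and 2.16 (1.47 ± 0.26). The adjusted p was 0.352 in the paired test and 0.038 with trend and robust variance. Tgtp2, a T cell-specific GTPase, lay at 8.63, 10.16 and 9.50 against 7.79, 7.72 and 7.93 (1.62 ± 0.35, adjusted p = 0.518) and did not overlap. Gbp4 differed by 1.03 ± 0.32 and Iigp1 by 0.82 ± 0.28, both without overlap, whereas Gbp7 and Gvin1 differed by 0.15 and -0.05. These GTPases form families of close copies, so a probe set may read more than 1 of them. Genes of antigen presentation had 4 of 15 members (26.7%) with an unadjusted p under 0.05 as higher, against 4.32% of all genes. H2-Q4 was first (0.79 ± 0.20, adjusted p = 0.549), followed by the peptide transporter Tap1, the immunoproteasome subunit Psmb9 and H2-K1. Among the class II genes, H2-Ab1 differed by -0.01, and H2-Aa and H2-Eb1 lay below background in both groups.

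Upstream windows are shown for 3 of the interferon genes whose values per array are given above. Capitals mark interferon response element-like matches, at position -58 from the start in Gbp2 and at -155, -121 and -102 in Ifit3. In Isg15 there are 3 overlapping matches that begin at -78, -72 and -66. KappaB-like matches at -245 in Ifit3 and -41 in Isg15, and an interferon response element-like match at -53 in Nfkbia, are not in capitals. Nor are AP-1 matches at -74 in Cxcl10, -102 in Gbp2 and -56 in Ifit3. The windows are chr3:142620413-142620662 on the plus strand for Gbp2, chr19:34583279-34583528 on the plus strand for Ifit3 and chr4:156200819-156201068 on the minus strand for Isg15 (RefSeq, GRCm38.p6):
Gbp2: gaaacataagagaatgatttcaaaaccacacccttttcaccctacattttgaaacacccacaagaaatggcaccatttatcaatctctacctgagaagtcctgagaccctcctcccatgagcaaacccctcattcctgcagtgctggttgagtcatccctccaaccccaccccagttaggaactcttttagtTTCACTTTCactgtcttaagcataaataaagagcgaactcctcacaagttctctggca
Ifit3: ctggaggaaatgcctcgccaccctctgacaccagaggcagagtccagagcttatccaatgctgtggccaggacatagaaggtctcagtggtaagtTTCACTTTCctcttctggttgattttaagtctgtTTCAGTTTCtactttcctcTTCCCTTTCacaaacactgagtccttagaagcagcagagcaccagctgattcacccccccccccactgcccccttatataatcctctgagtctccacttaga
Isg15: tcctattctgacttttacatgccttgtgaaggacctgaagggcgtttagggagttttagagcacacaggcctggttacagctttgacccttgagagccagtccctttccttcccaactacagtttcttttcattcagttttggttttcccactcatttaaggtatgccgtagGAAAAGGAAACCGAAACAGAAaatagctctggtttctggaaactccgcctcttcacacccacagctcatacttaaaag
Of the 36 genes in the interferon lists, 24 had a window, and 17 of those held such a match (70.8%), against 9.76% of all 27025 genes. The match was found in 4 of 11 windows of the 15 leading higher genes (36.4%) and in 0 of 8 windows of the 10 leading lower ones.

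Some of the leading genes are known from activated myeloid cells. In this list, 7 of 17 members (41.2%) had an unadjusted p under 0.05 as higher, against 4.32% of all genes, and 0 as lower. Its median was 0.20, with pair medians of 0.08, 0.45 and 0.35. Clec4e encodes Mincle, a lectin receptor for mycobacterial glycolipids and dying cells. It was at 10.66, 12.04 and 11.83 with co-treatment and at 9.31, 10.07 and 9.94 with carrier, without overlap. Its pair differences were 1.35, 1.98 and 1.89 (1.74 ± 0.28), with an adjusted p of 0.231 in the paired test, 0.0216 with trend and robust variance and 0.0282 when only the 6 arrays were fitted. Acod1 makes itaconate, a metabolite of inflammatory macrophages. Its levels of 6.87, 7.95 and 7.98 were all above the 5.58, 5.88 and 5.70 of carrier, but only co-treated arrays 2 and 3 were above background, so no size is given (adjusted p = 0.231). Marco, a scavenger receptor, lay at 11.76, 11.14 and 11.51 against 10.68, 10.70 and 10.55 (0.83 ± 0.22, adjusted p = 0.549), again without overlap. Tlr2, the lipopeptide receptor, differed by 0.60 ± 0.18 (adjusted p = 0.549). Nos2, the inducible nitric oxide synthase, differed by 0.17, and Trem1 was below background in both groups. The window before Acod1 is shown because it has a kappaB-like match in capitals, at position -85 from the start, at chr14:103046762-103047011 on the plus strand (RefSeq, GRCm38.p6):
Acod1: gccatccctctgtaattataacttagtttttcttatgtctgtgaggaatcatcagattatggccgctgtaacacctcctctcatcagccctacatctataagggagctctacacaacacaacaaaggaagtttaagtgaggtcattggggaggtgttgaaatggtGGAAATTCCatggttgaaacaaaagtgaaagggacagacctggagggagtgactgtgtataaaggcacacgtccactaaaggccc

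Macrophage markers lay slightly lower with co-treatment. Their mean level over 18 measured markers was 12.23, 13.44 and 12.94 on co-treated arrays and 12.43, 13.42 and 13.12 on carrier arrays. The median difference of the list was -0.15 (-0.23, -0.02 and -0.16 in pairs 1, 2 and 3), 9 of 18 were lower in all 3 pairs (13.3% of all genes) and 0 were higher in all 3. The member with an unadjusted p under 0.05 was Mpeg1, a pore-forming protein of macrophages, at 13.81, 15.25 and 14.76 against 14.33, 15.41 and 15.41 (-0.44 ± 0.15, adjusted p = 0.564). Of the 18 markers 1, Cd163, lay below background on all 6 arrays. Replicate number 1 had the lowest macrophage levels and the highest endothelial ones in both groups: 12 endothelial markers averaged 10.85, 9.44 and 9.78 on co-treated and 10.80, 9.40 and 9.86 on carrier arrays. It also had the smallest medians of the interferon and myeloid lists. The part of these cells in those results was not tested.

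**Figure D2:**
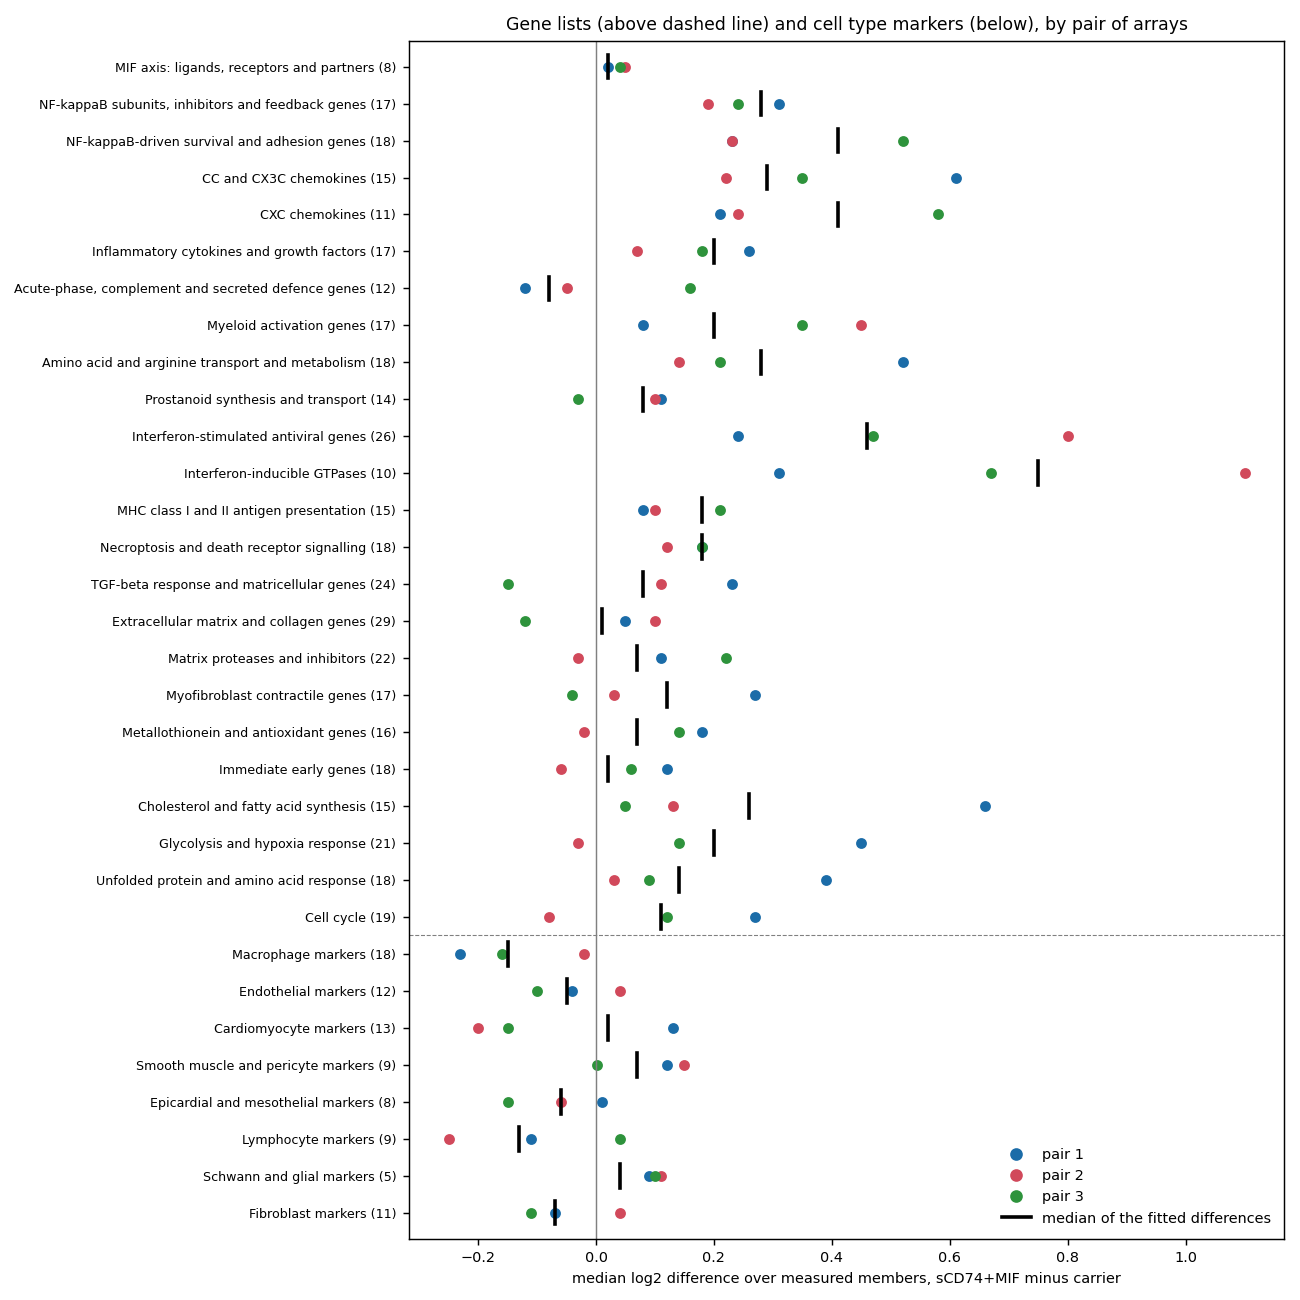
Median log2 difference (horizontal axis, co-treated minus carrier) over the measured members of each gene list, with the number of members in brackets. Coloured points are the medians in pairs 1, 2 and 3 and the black bar is the median of the fitted differences. The 3 points of the NF-kappaB, chemokine, interferon and GTPase lists lie right of 0, those of macrophage markers lie left of it, and cholesterol synthesis genes have 1 pair, number 1, well above the others.

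The leading genes included transporters of cationic amino acids, which import arginine and lysine. In the list of amino acid and arginine genes, 6 of 18 members (33.3%) had an unadjusted p under 0.05 as higher and 0 as lower. The share over all genes was 4.32% as higher. The list had a median of 0.28 and pair medians of 0.52, 0.14 and 0.21. Slc7a2 (CAT-2) was at 10.95, 11.03 and 10.99 with co-treatment and at 10.44, 10.28 and 10.08 with carrier. The SD was 0.04 over co-treated and 0.18 over carrier arrays (n = 3 each), the groups did not overlap, and the difference was 0.73 ± 0.15 (adjusted p = 0.513). Slc7a3 (CAT-3) stood at 9.24, 8.11 and 8.18 against 7.66, 7.39 and 6.61, without overlap, but its carrier mean of 7.22 was below background (adjusted p = 0.231). Slc1a5, a glutamine transporter, lay higher by 0.37 ± 0.11 (adjusted p = 0.549). The serine and glycine pathway enzymes Shmt2 and Phgdh differed by 0.55 ± 0.20 and 0.49 ± 0.20. For Phgdh this was 1.23 in pair 1 and 0.14 and 0.10 in pairs 2 and 3. Odc1, the first enzyme of polyamine synthesis, differed by 0.45 ± 0.16, and Arg1 and Arg2 were below background in both groups.

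Slco3a1, a transporter of prostaglandins and other organic anions, led the prostanoid list. Its levels were 12.59, 12.20 and 12.53 with co-treatment and 11.53, 11.71 and 11.09 with carrier, without overlap (0.99 ± 0.19). The adjusted p was 0.468 in the paired test and 0.0335 with trend and robust variance. Of 14 members, 3 (21.4%) had an unadjusted p under 0.05 as higher and 1 (7.14%) as lower, against 4.32% and 3.79% of all genes. Hpgd, which inactivates prostaglandins, was the lower one, at 9.72, 12.14 and 11.13 against 10.26, 12.25 and 11.95 (-0.49 ± 0.21, adjusted p = 0.613). Ptgs2 (cyclooxygenase 2) was below background in both groups. The metal-binding protein Mt2 was at 16.28, 15.66 and 15.84 against 15.54, 15.21 and 14.37 (0.89 ± 0.23, adjusted p = 0.549), and Slc39a14, a zinc and iron importer, differed by 0.45 ± 0.14. Mt1 and Hmox1 had p above 0.05 and differed by 0.25 and -0.09.

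Necroptosis is a lytic form of cell death in which Ripk3 activates the membrane-breaking protein Mlkl. Of 18 measured genes of death receptor signalling, 4 had an unadjusted p under 0.05 as higher and 0 as lower (median 0.18), where 4.32% and 3.79% of all genes did. Ripk3 was at 9.07, 8.89 and 8.94 with co-treatment and at 8.29, 8.72 and 8.39 with carrier, without overlap (0.50 ± 0.14, adjusted p = 0.549). Mlkl was at 12.06, 12.49 and 12.65 against 11.91, 12.01 and 12.04 (0.42 ± 0.13, adjusted p = 0.549), with pair differences of 0.16, 0.48 and 0.61. The TNF receptor gene Tnfrsf1a lay at 13.99, 13.89 and 13.97 against 13.34, 13.89 and 13.50 and differed by 0.37 ± 0.15 (adjusted p = 0.601). The values of pair 2 were almost the same. Casp8, whose product cuts Ripk3, was at 15.61, 15.72 and 15.51 against 15.77, 15.59 and 15.57, a difference of -0.03 ± 0.11 with no shared sign among pairs.

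Matrix and contractile genes, which define the myofibroblast, had list medians of 0.01 and 0.12. Among 29 matrix genes, 1 had an unadjusted p under 0.05 as higher, Eln (elastin, 0.39 ± 0.15), and 1 as lower, Lum (lumican), at 15.81, 16.18 and 16.12 against 16.45, 16.22 and 16.40 (-0.32 ± 0.13). Each of these was 3.45% of the list, close to the 4.32% and 3.79% of all genes. Fibronectin (Fn1) differed by -0.0014 ± 0.12 and Col3a1 by -0.05 ± 0.11. Of 24 TGF-beta response genes, 2 (8.33%) had such a p as higher and 1 (4.17%) as lower. The first of them, Ltbp2, a fibrillin-binding matrix protein, was at 9.10, 8.88 and 9.03 against 7.88, 8.13 and 8.44 and did not overlap (0.85 ± 0.17, adjusted p = 0.513). Tgfbi, a matrix protein, was the lower one, at 11.84, 12.72 and 12.54 against 12.80, 12.74 and 12.93 (-0.45 ± 0.16, adjusted p = 0.582). Acta2, smooth muscle alpha-actin, was at 16.97, 16.53 and 16.42 against 16.55, 16.48 and 16.35 (0.18 ± 0.12). In the contractile list, 3 of 17 members (17.6%, against 4.32% of all genes) had an unadjusted p under 0.05 as higher. On the lower side there were 0. The members were Tpm2, Tagln and Actg2, and Actg2 lay below background in both groups. Tpm2 and Tagln differed by 0.40 and 0.37, most in pair 1 (0.88 and 0.81). The pair medians of the list, 0.27, 0.03 and -0.04, were also highest in pair 1. Serpinf1, which encodes the secreted anti-angiogenic factor PEDF, was among the leading genes outside the lists. It lay at 12.81, 12.38 and 12.67 against 12.03, 12.10 and 11.81 (0.64 ± 0.13, adjusted p = 0.513), without overlap. Of the 22 matrix proteases and inhibitors, 3 (13.6%) had such a p as higher, Adamts9, Timp1 and Mmp13, and 0 as lower.

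Metabolic lists leaned on replicate number 1. Cholesterol and fatty acid synthesis had 5 of 15 members (33.3%, against 4.32% of all genes) with an unadjusted p under 0.05 as higher. Its pair medians were 0.66, 0.13 and 0.05. Sqle, squalene epoxidase, differed by 1.29, 0.24 and 0.27 in pairs 1, 2 and 3. Glycolysis and hypoxia genes (4 of 21 as higher, 19%) had pair medians of 0.45, -0.03 and 0.14. Genes answering unfolded proteins (1 of 18, 5.56%) had 0.39, 0.03 and 0.09. Immediate early genes had 2 of 18 (11.1%) as higher, Myc and Maff, and 1 (5.56%) as lower, Egr3, with a median of 0.02. Cell cycle genes had 2 of 19 as higher and 0 as lower. Markers of other cell types had medians of 0.02 for cardiomyocytes, 0.07 for smooth muscle cells and pericytes, -0.05 for endothelial cells, -0.06 for epicardial cells, -0.13 for lymphocytes, 0.04 for glial cells and -0.07 for fibroblasts. Of the 9 lymphocyte markers, 6 lay below background on all 6 arrays.

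On the lower side, the 9 leading genes above background in both groups had differences between -0.57 and -0.73. Reps2, an adaptor of receptor endocytosis, was at 11.50, 12.45 and 11.96 with co-treatment and at 12.25, 12.82 and 12.55 with carrier (-0.57 ± 0.12, adjusted p = 0.513). The groups overlapped, and the pair differences were -0.75, -0.37 and -0.59. Efemp1, the matrix protein fibulin-3, lay at 12.02, 10.27 and 10.66 against 12.68, 10.72 and 11.60 (-0.68 ± 0.15, adjusted p = 0.518). Il10ra, the receptor chain for the anti-inflammatory cytokine interleukin-10, was at 8.29, 9.52 and 8.84 against 9.21, 9.85 and 9.50 (-0.64 ± 0.14, adjusted p = 0.518). Tec, a kinase of haematopoietic cells, stood at 11.27, 12.16 and 11.73 against 12.01, 12.50 and 12.48 (-0.61 ± 0.15, adjusted p = 0.549). Kif3a, a kinesin motor of cilia, was at 12.86, 12.99 and 12.42 against 13.33, 13.55 and 13.39 and did not overlap (-0.67 ± 0.16, adjusted p = 0.549). Pja1, a ubiquitin ligase, also lay lower without overlap, as 3.96% of all genes did (-0.65 ± 0.15, adjusted p = 0.548). Fnip2 and Nfasc differed by -0.57 and -0.66. Pgap1 differed by -0.73, with pair differences of -0.61, -0.25 and -1.33, and by -0.43 without replicate 3 of every group. Cnga1 was below background with co-treatment (7.27) and at 7.84 with carrier. Of the 3 genes lower by at least 1, Negr1, a neuronal adhesion molecule, lay at 7.51, 9.06 and 8.83 against 9.49, 9.14 and 9.78 (-1.01 ± 0.26), also without overlap.

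The 3 pairs share no array, so their differences can be set against each other. Across 11116 genes at or above background in both groups, the differences correlated weakly, with Pearson's r of 0.0716 between pairs 1 and 2, 0.272 between pairs 1 and 3 and 0.0314 between pairs 2 and 3. The sign was the same for 52.6%, 58.8% and 48.2% of these genes. Genes chosen for large differences were more alike on the higher side. When the 50 genes with the largest mean difference were chosen on 2 pairs, 46 of 50 were higher in pair 1 when it was left out, 43 in pair 2 and 46 in pair 3, against 60.5%, 52.1% and 49.1% of all genes. Their median in the pair left out was 0.48, 0.45 and 0.78. All genes here are the 10997, 11064 and 11080 named ones at or above background in at least 1 group of the choosing pairs. The 50 came from these, so some had a carrier mean below background. They are not 50 independent observations, and no test was made. The 50 genes with the lowest mean were lower in the pair left out in 34, 26 and 37 cases. Of them 16, 24 and 13 were higher, against the 60.5%, 52.1% and 49.1% of all genes. Their medians were -0.12, -0.02 and -0.31, where all genes had 0.08, 0.01 and -0.01. In pair 2 these genes lay close to all genes. On the higher side 19 genes were chosen all 3 times, among them Clec4e, Birc3, Ccl2, Ccl7, Ccl5, Gbp2, Isg15, Oasl2 and Slco3a1. On the lower side 4 were: Defb14, Efemp1, Negr1 and Tec.

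**Figure D3:**
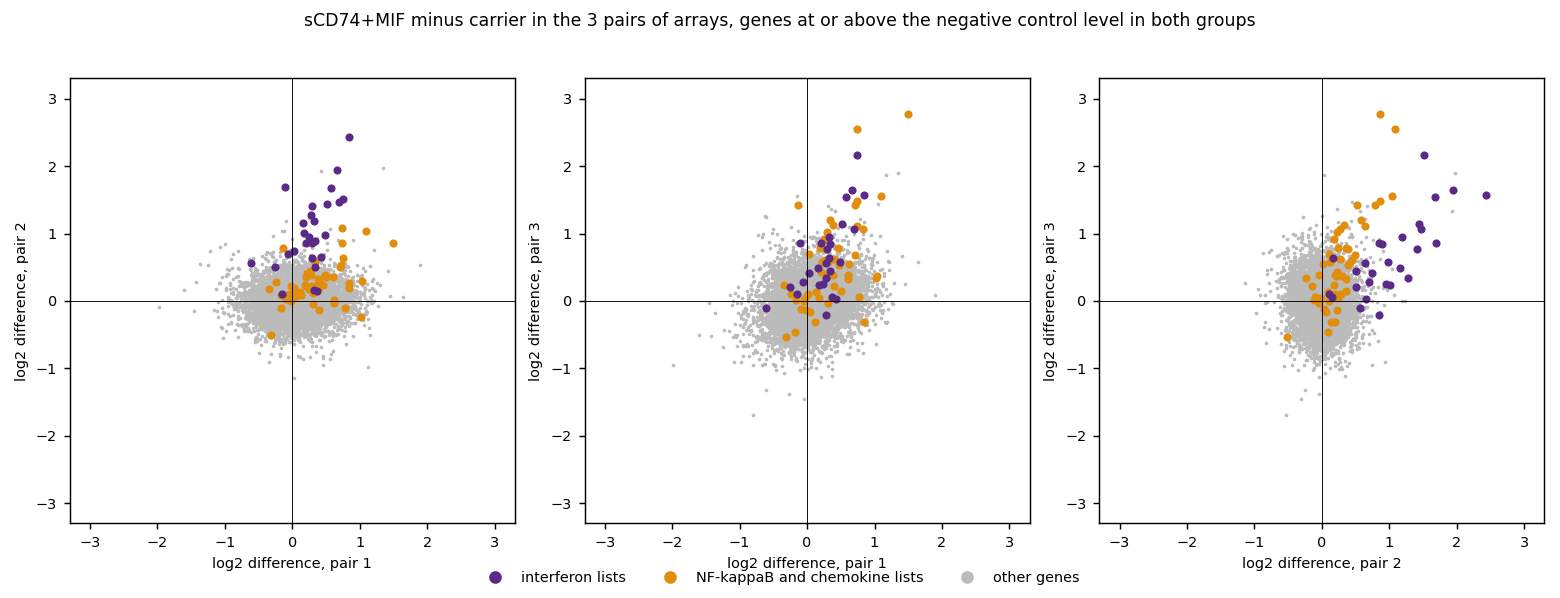
Log2 difference of co-treated minus carrier in 1 pair of arrays (horizontal axis) against another pair (vertical axis), for the 11116 genes at or above the negative control level in both groups. Members of the interferon lists (purple) and of the NF-kappaB and chemokine lists (orange) extend up and right of the grey cloud of other genes; over all genes drawn r is 0.0716, 0.272 and 0.0314. The interferon gene Tgtp2 reaches 2.44 in pair 2 and the chemokine Ccl2 2.78 in pair 3.

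The single-protein arrays give the values beside which co-treatment stands. All 3 comparisons use the same carrier arrays, so they share that error, and the differences between treatments were not tested here. Clec4e differed from carrier by 1.74 ± 0.28 with both proteins, by 0.06 ± 0.28 with sCD74 alone and by 0.76 ± 0.28 with MIF alone (SE). Its levels with MIF alone were 9.26, 10.70 and 11.64 in replicates 1, 2 and 3, overlapping with carrier. Birc3 differed by 0.83 ± 0.14 with both, 0.03 ± 0.14 with sCD74 and 0.81 ± 0.14 with MIF. For Ccl7 the values were 1.23 ± 0.26, 0.12 ± 0.26 and 0.83 ± 0.26, and for Nfkbia 0.63, 0.0044 and 0.60 (each ± 0.14). In these 4 genes the value with sCD74 alone lay within its SE of 0. The same held for Ccl2 (0.31 ± 0.44), Ccl12 (0.08 ± 0.27), Tnfaip3 (0.08 ± 0.22) and Sod2 (0.08 ± 0.18). It did not hold for some leading genes outside the interferon lists. With sCD74 alone Slco3a1 differed by 0.52 ± 0.19, Slc7a2 by 0.54 ± 0.15, Ltbp2 by 0.43 ± 0.17 and Serpinf1 by 0.39 ± 0.13. With MIF alone the same genes differed by 0.85, 0.66, 0.55 and 0.37. Among the interferon genes, Ifit3 differed by 1.26 ± 0.25 with both, 0.90 ± 0.25 with sCD74 and 0.68 ± 0.25 with MIF, and Gbp2 by 1.47 ± 0.26, 0.72 ± 0.26 and 0.88 ± 0.26. As lists, NF-kappaB feedback genes had medians of 0.28 with both, 0.03 with sCD74 and 0.23 with MIF. The CC and CX3C chemokines had 0.29, -0.02 and 0.30, and the antiviral interferon genes 0.46, 0.27 and 0.21. The median of Marco's group, the myeloid list, was 0.20 with both, 0.06 with sCD74 and 0.15 with MIF. Marco alone was at 0.83 ± 0.22, 0.07 ± 0.22 and 0.21 ± 0.22. Macrophage markers had medians of -0.15, -0.30 and -0.19.

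**Figure D4:**
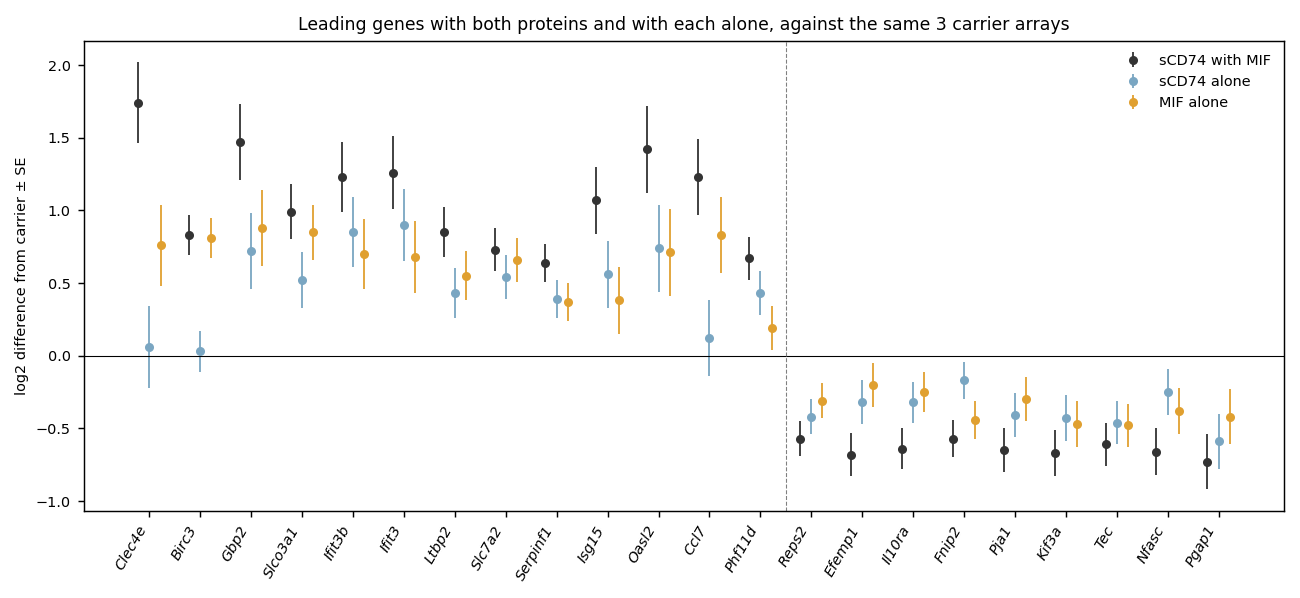
Log2 difference from carrier (vertical axis, bars are ± 1 SE of the paired fit over 12 arrays) of the 22 leading genes that were at or above the negative control level in all 4 groups, with sCD74 and MIF together, sCD74 alone and MIF alone. The 13 genes left of the dashed line lay higher and the 9 right of it lower with both proteins. For Clec4e, Birc3 and Ccl7 the point of sCD74 alone lies close to 0 (0.06, 0.03 and 0.12), while for Slco3a1 and Slc7a2 it lies at 0.52 and 0.54. All 3 comparisons share the carrier arrays.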

How the data were processed

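Expression was measured on Affymetrix WT Plus microarrays. The deposited log2 values were made by the authors; the submitters' processing notes name RMA, Transcriptome Analysis Console and Affymetrix Expression Console, and versions are not given in the sources used here. Of 28846 probe sets, 6640 controls were left out. Of the remaining 22206, 19572 had 1 gene symbol, 0 had several and 2634 had none in GEO's platform annotation, giving 19505 genes.

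Groups came from the titles. limma 3.58.1 (R 4.3.3) fitted 4 group means with the replicate number as a block over all 12 arrays, and p-values (two-sided) were adjusted by Benjamini-Hochberg over 22206 probe sets at 0.05. Titles of the same number share a code, which is the basis of the pairing; deviations from group means correlated with r of 0.484, 0.402 and 0.0816 for the same number and -0.43 to 0.102 for different ones. Named genes are the 15 higher and 10 lower of smallest p (alike in all 3 pairs, above the negative control level in at least 1 group, predicted genes passed over), the 3 of smallest p in each list, those called with trend and robust variance, and a set named for their role. Further list members were named with their values in view. Each gene is read by its probe set of highest mean. The members and lists were chosen with earlier results of these data known. The scripts were tested on simulated data. Alternatives were the model without the block, trend and robust variance, the 6 arrays alone, other scaling, a filter on dim probe sets, 1 probe set per gene and leaving out arrays. Upstream windows are from RefSeq (GRCm38.p6).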

Additional observations from a re-analysis of the deposited data

How the results depend on the processing

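The count of 0 probe sets past the adjusted threshold became 7 with trend and robust variance and 2 when the 6 arrays were fitted alone. It was 0 to 3 when arrays were left out: 3 without carrier replicate 1, 1 without carrier replicate 2 and 2 without replicate 1 of every group. The 1772 probe sets at an unadjusted p under 0.05 became 885 without the replicate block (456 higher, 429 lower), with a smallest adjusted p of 0.999, and 1065 to 2278 when arrays were left out. The lowest counts came without carrier replicate 1 (1065) and without replicate 1 of every group (1102). The filter on dim probe sets left 1291 of 12576, 826 higher and 465 lower, beside 916 and 856 without it. Leaving out arrays turned the sign of Cxcr2, with a range of -0.23 to 0.16 (0.03 without co-treated replicate 3, 0.16 without carrier replicate 1 and 0.01 without replicate 1), and of Casp8, -0.11 to 0.03. Under all alternatives Clec4e ranged from 1.57 to 2.01, Birc3 from 0.69 to 0.93, Gbp2 from 1.11 to 1.84, Ccl2 from 1.09 to 2.13, Pgap1 from -0.97 to -0.43, Mif from 0.09 to 0.55 and Acta2 from 0.06 to 0.25. Of 512 list medians under alternatives, 36 in 9 of 32 lists moved beyond the spread between pairs: the NF-kappaB feedback list ranged from 0.17 to 0.34, CXC chemokines from 0.19 to 0.51, cytokines from 0.06 to 0.34, antigen presentation from 0.08 to 0.24, necroptosis from 0.12 to 0.23, the MIF axis from -0.06 to 0.12, and endothelial, epicardial and glial markers from -0.09 to 0.03, -0.15 to -0.03 and -0.20 to 0.18. The cause of these shifts was not tested.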
